A study of Mus musculus with 54 samples.

Results

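Liver RNA of KO and WT mice was compared at 1 time of day, ZT20, which lies 20 h after lights on, in the dark phase when mice are awake and feeding. The comparison was made of the 3 KO and the 3 WT livers labelled ZT20, chosen by the genotype and time in their column names, which are 6 of the 54 RNA-seq libraries of the study. The study sequenced RNA of whole liver from WT, KO and RE mice, with 3 livers in each of 18 groups, every 4 h from ZT0 to ZT20. WT mice express Bmal1 (gene symbol Arntl) in every tissue. KO mice carry an Arntl allele that a floxed STOP sequence blocks. RE mice carry the same allele together with Syt10-Cre, which removes the STOP sequence in the suprachiasmatic nucleus, the central clock in the brain, so that by design their livers resemble KO livers in the allele itself. The labels give no age, sex, strain or feeding schedule, and do not say whether WT or KO mice carry Cre. Xist, the transcript of the inactive X chromosome, was at most 0.0371 FPKM in the 6 livers, and Ddx3y, a gene of the Y chromosome, lay between 6.95 and 13.7 FPKM in all of them.

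BMAL1 is the transcription factor that pairs with CLOCK or NPAS2, binds E-boxes and drives the genes of its own repressors, the Period and Cryptochrome families, as well as the nuclear receptors Nr1d1 and Nr1d2 (REV-ERB alpha and beta) and the factor Dbp. The REV-ERBs repress, and the ROR receptors activate, genes with ROR elements, among them Arntl, Npas2 and Cry1, while DBP, TEF and HLF act through D-boxes against NFIL3. In liver these loops give many genes of lipid, glycogen, bile acid and xenobiotic metabolism a daily rhythm, so a difference between genotypes can depend on the hour at which it is taken.

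Values are the deposited FPKM, a level per gene that is corrected for transcript length and library size. Without read counts the depth behind a value is unknown, and each group mean rests on 3 livers. The 6 libraries summed to between 641069 and 715486 FPKM and listed between 14956 and 15576 genes above 0. Differences are KO minus WT in log2(FPKM + 1), a scale that understates changes of genes of low FPKM. Each came from limma with all 54 libraries in the fit. A gene was called where its Benjamini-Hochberg adjusted p, taken over all 10932 tested genes, was under 0.05. Nothing in the labels says that the livers of a group came from separate animals, so the p-values measure only the spread between these samples. Whole liver was sequenced, so fewer cells of a type and less RNA per cell cannot be told apart.

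At ZT20, 6 of 21 listed genes of fat synthesis and 5 of 26 of PPAR alpha and fat oxidation fell in KO liver, and none of either list rose. Of 23 xenobiotic genes 3 rose and 5 fell. Of 19 core clock genes 4 were called, fewer than at any other of the 6 times. In all, 1024 of the 10932 genes tested were called (9.37%), 610 higher in KO (5.58%) and 414 lower (3.79%), against 2476 genes at an unadjusted p under 0.05. The median difference over all tested genes was 0.02. The median size of a difference was 0.16 over all tested genes and 0.57 among the called ones. In size, 100 of the called genes were higher and 115 lower by more than 1 log2 unit. The 3 KO livers did not overlap the 3 WT livers in 1014 of the called genes, and in 35% of all tested genes. The number of calls was lower with any 1 of the 6 livers left out, from 558 to 807, which also makes a group smaller. It was 558 without KO liver 1, 600 without WT liver 2 and 659 without WT liver 1. When limma weighted the libraries by their quality it was 2354.

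**Figure D1:**
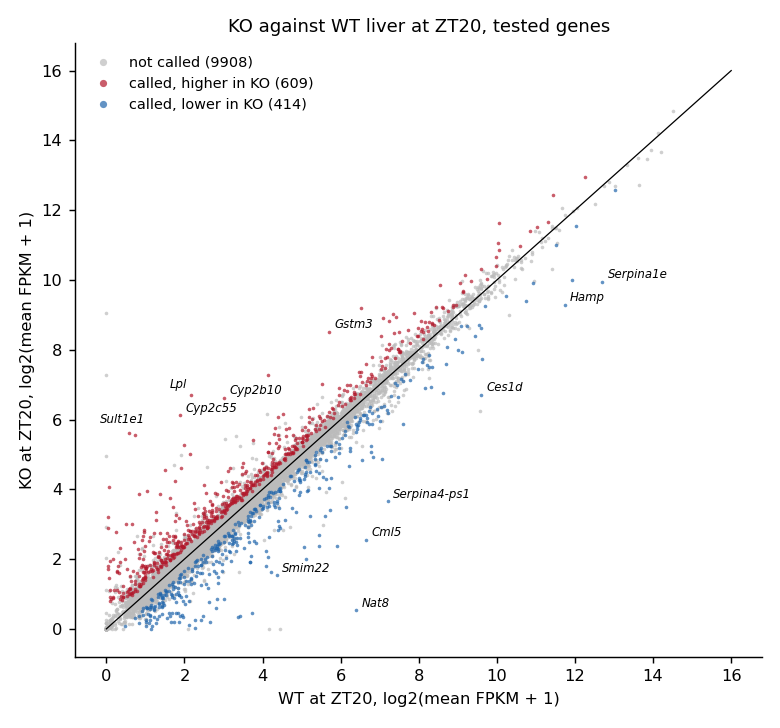
Mean expression at ZT20 of 10931 tested genes, log2(mean FPKM + 1) of the 3 WT livers (x axis) against that of the 3 KO livers (y axis), 1 point per gene; red points were called higher and blue points lower in KO, and the line marks equal values. Most genes lie along the line, Lpl, Cyp2c55 and Sult1e1 stand far above it and Nat8 far below it; Alb, listed at 0 in all 3 WT livers, is not drawn.

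The core clock was examined first because it is the direct target of the mutation. Of 19 clock genes, 1 was called higher (Npas2) and 3 lower (Nr1d2, Ciart and Per3) at ZT20, and the median size of their differences was 0.32, against 0.16 over all tested genes. The same 19 genes gave 12 calls at ZT0 and at ZT4, 15 at ZT8 and at ZT12, and 10 at ZT16, with median sizes from 0.59 to 1.61. Over all tested genes the share called was 8.65% at ZT0, 11.4% at ZT4, 11.5% at ZT8, 18.3% at ZT12 and 14.6% at ZT16, against 9.37% at ZT20.

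Among the activators, Arntl (chr7:113178471-113314126, mm10) measured 10.1, 8.38 and 9.43 FPKM in WT livers 0, 1 and 2 and 14.2, 10.9 and 12.6 FPKM in KO livers 0, 1 and 2. Every KO liver was above every WT liver, but the difference of 0.39 (SE 0.17, 95% interval 0.04 to 0.74) was not called (limma, adjusted p = 0.158). These values count fragments over the whole gene, so they report transcript level and check neither the STOP sequence nor the protein. In WT the mean level of Arntl ran from 9.72 FPKM at ZT0 through 3.17, 0.324, 0.435 and 5.77 at the following times to 9.29 at ZT20, while the KO means stayed between 11.2 and 13.1. ZT20 and ZT0 were thus the times when WT came nearest to the KO level. Npas2, the partner that can stand in for CLOCK, was the 1 activator that rose, from 0.847, 1.03 and 0.942 FPKM in WT to 5.40, 5.61 and 6.72 FPKM in KO, a difference of 1.83 (SE 0.23, adjusted p = 2.70e-07). Clock itself differed by -0.12 (95% interval -0.50 to 0.25), with overlapping livers.

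The repressor genes Nr1d1 and Cry1 and the output factor Dbp overlapped between the genotypes at ZT20. Nr1d1 measured 0.888, 0.768 and 0.977 FPKM in WT and 0.890, 0.487 and 0.613 FPKM in KO, overlapping groups with a difference of -0.18 (95% interval -0.65 to 0.29), whereas at ZT4 its means were 47.4 in WT and 1.06 in KO. Dbp likewise measured 1.15, 1.38 and 1.58 FPKM in WT and 2.36, 1.27 and 1.67 in KO at ZT20 (difference 0.21, 95% interval -0.33 to 0.75), against means of 74.9 and 1.37 at ZT8. Cry1, a repressor driven through ROR elements as well as E-boxes, measured 21.3, 16.1 and 17.7 FPKM in WT and 18.8, 16.9 and 23.7 in KO (difference 0.10, 95% interval -0.34 to 0.54), while at ZT4 its means were 2.34 and 19.7. For Nr1d1 and Dbp WT was at its low point at ZT20 or near it, and for Cry1 WT was at its highest mean of the 6 times.

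The 3 clock genes that fell were below 5 FPKM in every liver of both genotypes. Nr1d2 fell from 4.18, 3.27 and 3.13 FPKM in WT to 1.39, 1.60 and 1.27 FPKM in KO (-0.90, SE 0.22, adjusted p = 0.00598). Ciart, a repressor of CLOCK and BMAL1 activity, fell from 0.741, 0.988 and 0.976 to 0.0424, 0.466 and 0.448 FPKM (-0.54, SE 0.16, adjusted p = 0.0223). This call ended without KO liver 0 (adjusted p = 0.191), WT liver 1 (0.0850) or WT liver 2 (0.0866). Per3 fell from 1.72, 1.42 and 1.72 to 1.04, 0.833 and 1.01 FPKM (-0.42, SE 0.14, adjusted p = 0.0479), a call that did not survive the loss of any 1 of the 6 livers (adjusted p from 0.0622 to 0.193). Other clock genes were not called. Per1 and Per2 differed by -0.51 and -0.32, Cry2 by 0.32, and Rora by -0.50 with an adjusted p just above the threshold. Bhlhe40 differed by -0.07. Bhlhe41 measured 0.170, 0.146 and 0.216 FPKM in WT and 0.00572, 0.0225 and 0 FPKM in KO, low values without overlap (-0.22, adjusted p = 0.249), and the D-box factors Tef, Hlf and Nfil3 by -0.12, -0.39 and -0.27.

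**Figure D2:**
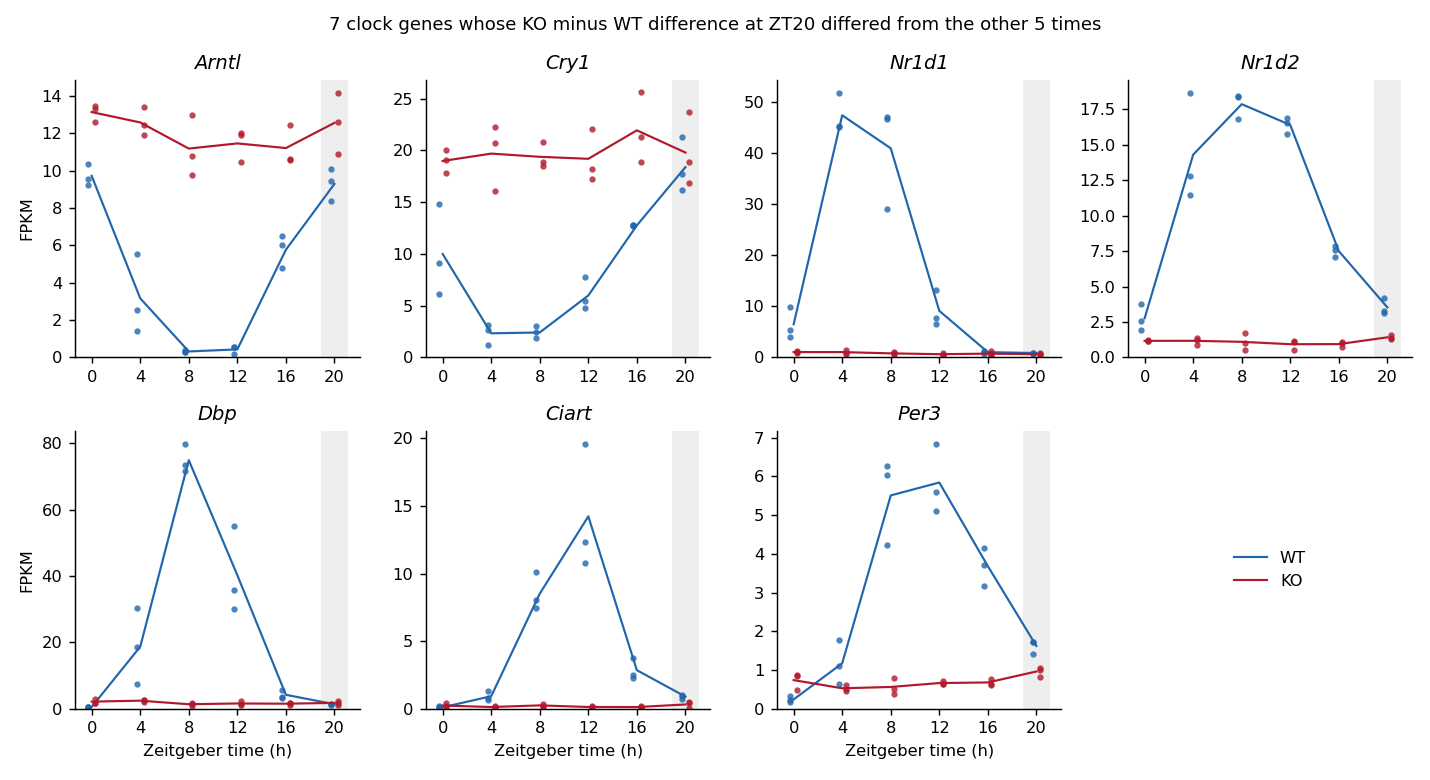
FPKM (linear axis from 0) of 7 clock genes in each WT (blue) and KO (red) liver at the 6 times, with lines through the group means and ZT20 shaded. The KO means vary little beside those of WT, and at ZT20 the WT line of Arntl and Cry1 is at or near its highest point and that of Nr1d1, Dbp and Ciart near its lowest, close to KO.

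Whether ZT20 differed from the rest of the day was tested in the same limma fit, as the difference at ZT20 minus the mean difference of the other 5 times, which come from 30 other libraries. In all, 22 of the 10932 genes were called (0.201%; 722 at an unadjusted p under 0.05), and 8 of these 22 were among the 19 clock genes. The gap between genotypes at ZT20 was smaller in size than at the other times for all 8. For Arntl it was 0.39 against 1.88 (change -1.49, SE 0.19, adjusted p = 3.93e-06) and for Cry1 0.10 against 1.69 (adjusted p = 7.51e-05). For Nr1d1 it was -0.18 against -2.74 (change 2.56, SE 0.25, adjusted p = 2.17e-08), for Dbp 0.21 against -2.26 (adjusted p = 8.27e-07) and for Nr1d2 -0.90 against -2.41 (adjusted p = 2.66e-04). Ciart (-0.54 against -1.80, adjusted p = 1.88e-05) and Per3 (-0.42 against -1.11, adjusted p = 0.0287) were also among them. With a pseudocount of 0.1 the calls of Nr1d2 (adjusted p = 0.0562), Ciart (0.241) and Per3 (0.328) ended, and that of Per3 also ended without any 1 of the 6 livers (from 0.0510 to 0.170). The number of such genes was 14 without KO liver 1.

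Of the other 14 genes, Lonrf3, named after its values were seen, belongs to the list of clock output genes (-0.21 at ZT20 against 0.57, adjusted p = 0.0488). Its call ended without any 1 of the 6 livers except KO liver 2 (adjusted p from 0.0770 to 0.324) and under 5 other alternatives (from 0.0529 to 0.0795). The 5 genes that follow were in none of the clock lists. The gap was smaller at ZT20 for Lgalsl, a galectin-like gene (0.09 against 1.29, adjusted p = 0.00132), for Mreg (0.18 against 1.00, adjusted p = 0.00309) and for Trim2, a ubiquitin ligase gene (0.16 against 0.96, adjusted p = 0.0244). The call of Mreg ended without WT liver 0 (0.0518) and that of Trim2 without KO livers 0 or 1 or WT livers 1 or 2 (up to 0.187) and with libraries rescaled to the same total (0.0640). Clpx, which encodes the ATPase of a mitochondrial protease, was higher in KO at ZT20 as well, at 148, 168 and 141 FPKM against 96.0, 76.9 and 92.5 FPKM in WT, but its difference of 0.78 was smaller than the 1.68 of the other times (adjusted p = 0.00340). Palld, which encodes the actin-binding protein palladin, fell at ZT20 from 30.8, 27.6 and 32.1 FPKM in WT to 15.4, 15.7 and 21 FPKM in KO (-0.77, SE 0.17, adjusted p = 0.00150). Its difference was also below 0 at the neighbouring times, -0.33 at ZT16 and -0.22 at ZT0, neither called, and above 0 at ZT4 (0.41, not called), ZT8 (0.68) and ZT12 (0.55). The mean over the other 5 times was thus 0.22 (adjusted p = 0.0185), and the change of -0.99 from that mean was called (adjusted p = 0.00279). In all, 16 of the 22 had a smaller and 6 a larger gap at ZT20. The 3 gene models that carry no gene name were among the 6. Besides Palld the others were Ptpn21 (-0.49 at ZT20 against -0.08, limma, adjusted p of the change 0.0323) and Sh2b3 (0.41 against -0.10, 0.0372). Both were named after their values were seen, and their calls under the alternatives are not given.

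**Figure D3:**
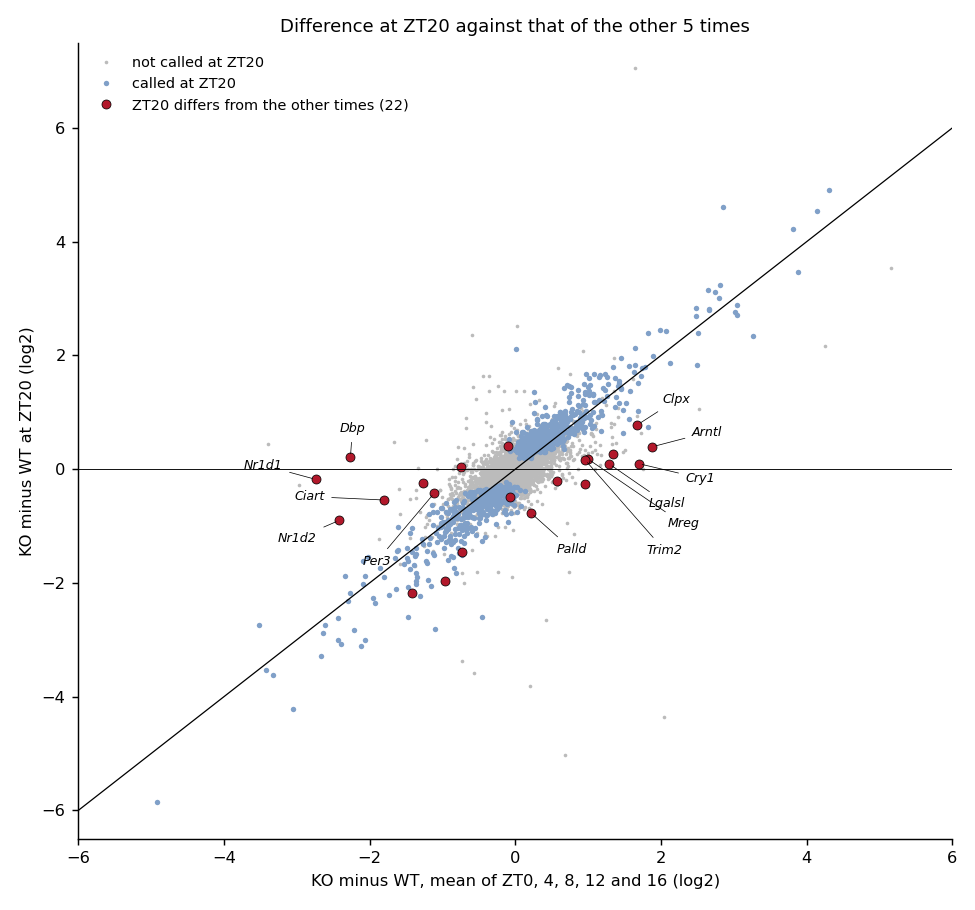
KO minus WT at ZT20 (y axis) against the mean KO minus WT of the other 5 times (x axis), both in log2(FPKM + 1), 1 point per tested gene without Alb; pale blue points were called at ZT20, and the 22 large red points were called in the test of ZT20 against the other times. Called genes mostly follow the line of equal values, while the clock genes, from Nr1d1 at the left to Arntl at the right, lie nearer to 0 on the y axis than that line.

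Promoter sequence was read for 16 of the 19 clock genes that the RefSeq promoter table lists, 21 windows of GRCm38.p6 (mm10) from 250 bases before to 50 bases after a start site. Both strands were searched for the E-box CACGTG, bound by BMAL1 with CLOCK, the ROR element TAGGTCA and the D-box TTATGTAA. The end of the ROR element can share letters with the start of an E-box, which it did in none of the 21 windows. An E-box stood in 6 of the 21 windows and in 7.15% of all 32851 windows, a ROR element in 2 and in 2.61%, and a D-box in 1 and in 0.938%. Among the windows of the genes called at ZT20, the E-box was in 10.2% of those higher and 9.86% of those lower in KO, against 10.2% of those of all tested genes, and the D-box in 0.508% and 2.06% against 0.6%. These matches describe the letters of these windows only. The 4 sequences that follow belong to clock genes whose gap at ZT20 differed from the other times and hold a match, each shown 5′ to 3′ on the gene's strand with the match in capitals. For Arntl it is a stretch of 30 bases around a ROR element after one of its start sites (chr7:113207529-113207558, plus strand). It is for Cry1 the 250 bases before the start with 1 E-box (chr10:85185055-85185304, minus strand), for Ciart the same with 3 E-boxes (chr3:95882229-95882478, minus strand) and for Per3 the same with 2 D-boxes (chr4:151044666-151044915, minus strand).
Arntl: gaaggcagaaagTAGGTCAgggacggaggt
Cry1: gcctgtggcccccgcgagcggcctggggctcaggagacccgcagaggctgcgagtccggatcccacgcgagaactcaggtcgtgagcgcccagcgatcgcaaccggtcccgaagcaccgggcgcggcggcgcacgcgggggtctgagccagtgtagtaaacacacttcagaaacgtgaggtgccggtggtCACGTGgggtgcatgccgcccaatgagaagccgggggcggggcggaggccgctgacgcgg
Ciart: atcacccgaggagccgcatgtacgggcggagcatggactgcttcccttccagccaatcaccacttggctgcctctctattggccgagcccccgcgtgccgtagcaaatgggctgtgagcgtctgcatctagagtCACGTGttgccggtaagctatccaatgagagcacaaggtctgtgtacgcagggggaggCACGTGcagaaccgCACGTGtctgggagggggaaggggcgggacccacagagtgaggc
Per3: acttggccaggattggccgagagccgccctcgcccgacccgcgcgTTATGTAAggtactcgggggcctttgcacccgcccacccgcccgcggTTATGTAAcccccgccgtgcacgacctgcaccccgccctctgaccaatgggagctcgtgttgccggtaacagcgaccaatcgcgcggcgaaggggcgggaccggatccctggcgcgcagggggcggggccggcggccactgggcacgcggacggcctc
Of these, Arntl and Cry1 were close to their daily peak in WT at ZT20 and Ciart and Per3 far from theirs, as given above.

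The largest rises at ZT20 were in genes outside the clock. The 12 largest rises and falls were taken from called genes without overlap between KO and WT livers, so that separation was fixed by the choice. Sult1e1, the sulfotransferase that inactivates oestrogens (chr5:87575968-87591611), measured 1.00, 0.432 and 0.0482 FPKM in WT and 21, 50.3 and 71.2 FPKM in KO, a difference of 4.91 (SE 0.79, adjusted p = 2.67e-05). Lpl, lipoprotein lipase, an enzyme that adult liver normally makes little of (chr8:68880555-68906932), rose from 2.94, 3.90 and 3.66 FPKM to 102, 96.7 and 112 FPKM, 29.5 times on the means (4.54, SE 0.27, adjusted p = 4.71e-16). The lowest KO liver thus stood far above the highest WT liver in both genes, and the KO livers were far more alike for Lpl than for Sult1e1. The trypsin inhibitor gene Spink1 rose from 0.820, 0.898 and 0.263 FPKM to 24.3, 87.4 and 27.3 FPKM (4.61, SE 0.67, adjusted p = 3.45e-06), with KO liver 1 far above the other KO livers. Mup19, a major urinary protein gene, had the largest difference of all tested genes other than Alb (7.06) but was not called (adjusted p = 0.0510), and its family shares sequence.

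Several cytochrome P450 and glutathione transferase genes were among the rises. Cyp2c55 (chr19:39006940-39042690) rose from 2.65, 3.10 and 2.36 FPKM to 79.0, 67.6 and 59.7 FPKM (4.23, SE 0.37, adjusted p = 2.32e-11). Cyp2b10, a classic target of the nuclear receptor CAR (chr7:25897658-25926624), rose from 9.98, 5.25 and 6.10 FPKM to 87.4, 157 and 46.8 FPKM (3.48, SE 0.52, adjusted p = 7.23e-06). Gstm3 rose from 50.6, 59.5 and 43.0 FPKM to 428, 377 and 285 FPKM (2.80, SE 0.30, adjusted p = 8.43e-09). None of these groups overlapped, which their choice required. Members of the Cyp2c and Gstm families share sequence, so how reads were divided among relatives is uncertain.

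The other large rises began from WT levels of a few FPKM or less. Tox2, a chromatin-associated HMG-box factor, rose from 0.0331, 0.0355 and 0.0307 FPKM to 6.67, 5.20 and 7.38 FPKM (2.83, SE 0.22, adjusted p = 7.03e-13). Ntrk2, the receptor for brain-derived neurotrophic factor, rose from 1.09, 0.995 and 0.288 to 10.9, 10.9 and 18.9 FPKM, and Loxl4, a lysyl oxidase of the extracellular matrix, from 0.936, 0.898 and 1.39 to 14.2, 13.9 and 15.0 FPKM. Raet1d, a ligand of the receptor NKG2D on natural killer cells, rose by 3.24 (SE 0.35) to 35.8, 50.2 and 25.9 FPKM, and Ndrg1, a gene induced by stress and low oxygen, by 2.83 (SE 0.23) to 41.0, 30.0 and 22.3 FPKM. The KO livers spread widely for Ly6d, at 7.62, 42.1 and 17.8 FPKM against 2.40, 1.66 and 1.45 FPKM in WT (2.77, SE 0.92, adjusted p = 0.0488), and its call ended without any 1 of the 6 livers except KO liver 0 (adjusted p from 0.0842 to 0.258).

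The largest fall was that of Nat8, an N-acetyltransferase gene that takes part in making mercapturic acids (chr6:85830387-85836857). It measured 99.8, 80.5 and 68.4 FPKM in WT and 0.2, 0.381 and 0.766 FPKM in KO, a difference of -5.86 (SE 0.24, adjusted p = 1.96e-21), and every KO liver was below 1 FPKM. Its relative Cml5 fell from 92.7, 106 and 99.8 FPKM to 2.18, 4.95 and 7.36 FPKM (-4.21, SE 0.49, adjusted p = 5.08e-08). The family shares sequence, so its division of reads is uncertain. Mme, the membrane protease neprilysin (chr3:63295211-63383713), fell from 11.5, 11.6 and 13.7 FPKM to 0.269, 0.230 and 0.610 FPKM (-3.28, SE 0.14, adjusted p = 1.00e-20). The small heat shock protein gene Hspb1 fell from 38.8, 34.6 and 54.1 FPKM to 4.24, 3.04 and 5.26 FPKM (-3.07, SE 0.34, adjusted p = 1.12e-08). The choice required every KO liver to lie below every WT liver, and in these 4 genes the gap was wide, most of all for Nat8.

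Several of the remaining falls were in genes of secreted or matrix proteins. Hamp, the iron hormone hepcidin (chr7:30942368-30944029), fell from 3620.2, 3066 and 3523 FPKM to 1258, 378 and 238 FPKM (-2.81, SE 0.57, adjusted p = 7.04e-04), with KO liver 0 well above the other KO livers and still below every WT liver. Tff3, the mucus peptide trefoil factor 3, fell from 21.5, 122 and 32.5 FPKM to 0.804, 9.75 and 2.05 FPKM (-3.54, SE 0.78, adjusted p = 0.00202). In each group the highest liver stood well above the others. Col27a1, a fibrillar collagen, fell to 0.169, 0.282 and 0.369 FPKM from 7.49, 10.6 and 9.84 FPKM, and Serpine2, a protease inhibitor, to 0.265, 0.283 and 0.359 FPKM from 12.3, 6.36 and 10.6 FPKM, both by about 3 log2 units (-3.01, SE 0.17, and -3.0, SE 0.26). The carboxylesterase gene Ces1d fell from 819.9, 766 and 721 FPKM to 115, 104 and 92.6 FPKM (-2.88, SE 0.41, adjusted p = 2.41e-06), and Smim22 by 2.83 to 1.40, 3.02 and 1.30 FPKM. Serpina1e, an alpha-1 antitrypsin gene, fell by 2.74 (SE 0.80, adjusted p = 0.0232) and the pseudogene Serpina4-ps1 by 3.61 (SE 1.06, adjusted p = 0.0240). Both of these calls ended without KO liver 1, WT liver 1 or WT liver 2, that of Serpina1e also without KO liver 0 and that of Serpina4-ps1 without KO liver 2 (adjusted p up to 0.106 and 0.138), and the Ces1 and Serpina1 families share sequence.

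**Figure D4:**
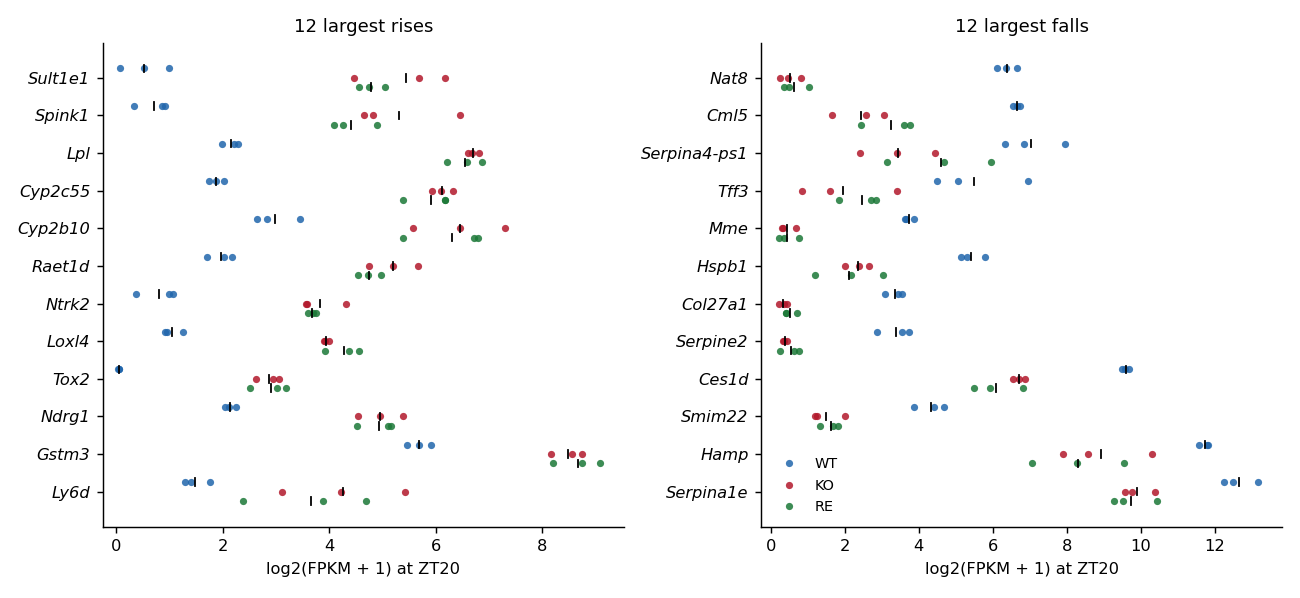
log2(FPKM + 1) of the 12 largest rises (left) and 12 largest falls (right) at ZT20 in each of the 3 WT (blue), 3 KO (red) and 3 RE (green) livers, with the group mean as a black tick. The 24 genes were chosen without overlap between KO and WT livers, so no KO point crosses a WT point by choice. The RE points lie mostly with the KO points. RE liver 2 for Serpina4-ps1 (60.5 FPKM) and RE liver 1 for Ly6d (4.18 FPKM) lie nearer to the WT points. Serpina4-ps1, Tff3 and Hamp have the widest range within a group.

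Of 21 listed lipogenesis genes, which make fatty acids and triglycerides, 6 were called lower (28.6%) and none higher. The shares over all tested genes, 3.79% lower and 5.58% higher, are the background for this and the following lists. The median difference was -0.54 (0.02 over all tested genes), and all 21 differences were below 0. Scd1, the desaturase that makes oleate, fell from 3781, 4974 and 2922 FPKM to 887, 742 and 1462 FPKM (-1.94, SE 0.49, adjusted p = 0.00777). Me1, malic enzyme, which supplies NADPH for fat synthesis (chr9:86581363-86695914), fell from 188, 257 and 135 FPKM to 67.3, 39.4 and 64.3 FPKM (-1.73, SE 0.39, adjusted p = 0.00272). No KO liver reached the lowest WT liver in either gene, and such separation was found in 1014 of all 1024 called genes.

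The other called members lengthen or desaturate fatty acids or handle triglycerides. Dgat2, which forms triglycerides, fell from 273, 233 and 251 FPKM to 178, 165 and 177 FPKM (-0.54, SE 0.12, adjusted p = 0.00146), and the fatty acid desaturase Fads2 from 302, 368 and 293 FPKM to 189, 150.3 and 199.9 FPKM (-0.84, SE 0.20, adjusted p = 0.00410). Pnpla3, a lipase of lipid droplets, measured 1.27, 12.1 and 2.60 FPKM in WT and 0.136, 0.114 and 0.160 FPKM in KO (-2.06, SE 0.36, adjusted p = 1.06e-04), with WT liver 1 far above the other WT livers. The elongase gene Elovl6 fell from 41.1, 76.8 and 27.6 FPKM to 17.8, 15.5 and 22.9 FPKM (-1.22, SE 0.40, adjusted p = 0.0444). Fasn, fatty acid synthase, measured 109.8, 179 and 107 FPKM in WT and 44.6, 52.4 and 85.7 FPKM in KO without overlap and was not called (-1.12, 95% interval -2.06 to -0.17, adjusted p = 0.131). The call of Elovl6 ended without any 1 of the 6 livers except WT liver 2 (adjusted p from 0.0538 to 0.291). That of Scd1 ended without KO liver 1 (0.0573), and those of Elovl6 (0.0784) and Pnpla3 (0.0766) in a fit of the 6 ZT20 libraries alone. Related genes outside the list, named after their values were seen, were called in both directions. Agpat2, Agpat9 and Pnpla5 were called lower, and Scd2, Agpat5 and Lpin3 higher. Scd2, another desaturase, differed by 1.99 (SE 0.38, adjusted p = 3.53e-04), and the glycerolipid enzymes Agpat5 and Lpin3 by 0.31 (adjusted p = 0.0276) and 0.40 (adjusted p = 0.0227). The call of Agpat5 ended without KO liver 0, KO liver 2 or WT liver 2 (up to 0.192), with libraries rescaled (0.0952) and in the fit of 6 libraries (0.122), and that of Lpin3 without KO liver 0, KO liver 1 or WT liver 0 (up to 0.0930).

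Genes under PPAR alpha, the receptor that turns on fat oxidation, gave 5 calls lower (19.2%) and none higher of 26. The median was -0.23, with 20 differences below 0 and 6 above, from -2.08 to 1.96. Among the 5 called genes were Ppara itself, a carnitine carrier and enzymes that act on acyl-CoA. The peroxisomal thiolase gene Acaa1b fell from 943, 754 and 662 FPKM to 240.4, 163 and 229.9 FPKM (-1.90, SE 0.38, adjusted p = 5.98e-04). The acyl-CoA thioesterase gene Acot1 fell by 2.08 (SE 0.56) to 3.26, 2.88 and 3.36 FPKM, and the mitochondrial carnitine carrier gene Slc25a20 by 0.76 (SE 0.21) to 43.8, 48.2 and 54.3 FPKM. Ppara, the receptor, fell from 29.6, 27.5 and 33.4 FPKM to 18.5, 15.7 and 20.4 FPKM (-0.70, SE 0.23, adjusted p = 0.0407). Cpt1a, the gate of fatty acid entry into mitochondria, differed by -0.26 (95% interval -0.82 to 0.29) and was not called. The count was 2 without WT liver 0 and 3 without KO liver 0 or KO liver 1. The call of Ppara ended without any 1 of the 6 livers (adjusted p from 0.0510 to 0.190), that of Acot1 without KO liver 1 or WT liver 0 (up to 0.0541), and that of Slc25a20 without KO liver 0 or WT liver 0 (up to 0.0672).

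Of 25 genes of cholesterol synthesis and uptake none was called by limma (median 0.22). Mvk, mevalonate kinase, measured 13.5, 13.0 and 13.1 FPKM in WT and 22.8, 27.7 and 33.6 FPKM in KO without overlap (1.02, 95% interval 0.28 to 1.75, adjusted p = 0.0695). Of 18 bile acid genes 3 were called higher (16.7%) and none lower. Abcg5 and Abcg8, the subunits of the transporter that exports sterols into bile, rose from 20.0, 20.0 and 17.0 FPKM to 48.0, 60.9 and 49.4 FPKM (1.42, SE 0.26, adjusted p = 1.57e-04) and from 10.8, 10.2 and 9.34 FPKM to 23.3, 25.6 and 23.3 FPKM (1.18, SE 0.27, adjusted p = 0.00263). The bile acid synthesis enzyme Hsd3b7 rose from 252, 226 and 278 FPKM to 407, 401 and 377 FPKM (0.65, SE 0.14, adjusted p = 0.00127). Cyp7a1, which takes the rate-limiting step from cholesterol to bile acids, differed by 0.47 with overlapping livers (95% interval -0.65 to 1.58).

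Glycogen and glucose handling gave 1 gene higher (6.25%, near the background) and 3 lower (18.8%) of 16 (median -0.12). Gys2, the glycogen synthase of liver and a known target of the clock (chr6:142422612-142473130), fell from 74.1, 83.5 and 64.0 FPKM to 31.3, 30.5 and 38.5 FPKM (-1.12, SE 0.14, adjusted p = 3.04e-07). The branching enzyme Gbe1 fell from 57.9, 68.0 and 55.9 to 32.5, 34.2 and 40.1 FPKM (-0.75, adjusted p = 0.00721) and the glucose transporter Slc2a2 (GLUT2) from 119, 108 and 104 to 44.4, 57.4 and 69.4 FPKM (-0.96, adjusted p = 0.00920). Gckr, the regulatory protein that holds glucokinase in the nucleus, rose from 66.1, 64.1 and 54.8 FPKM to 93.1, 117 and 98.3 FPKM (0.73, SE 0.12, adjusted p = 3.16e-05). The call of Gbe1 ended without WT liver 1 (adjusted p = 0.0508) and that of Slc2a2 without KO liver 0 (0.0773). Of 14 genes of gluconeogenesis and fasting none was called. Pck1 measured 403, 219 and 413 FPKM in WT and 476, 541 and 734 FPKM in KO (0.79, 95% interval -0.20 to 1.78), and G6pc differed by 0.12 (-0.71 to 0.95). Of 14 insulin signalling genes only Grb14, an adaptor that inhibits the insulin receptor, was called, at 0.49 (SE 0.15, adjusted p = 0.0293), and not without KO liver 1, KO liver 2, WT liver 1 or WT liver 2 (adjusted p up to 0.155).

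Among 17 clock output genes, those known to follow the clock in liver, 3 fell (17.6%) and none rose (median -0.21). Besides Gys2 these were Nampt, the rate-limiting enzyme of NAD salvage (chr12:32820335-32853369), which fell from 20.6, 21.3 and 19.2 FPKM to 8.15, 9.76 and 12.2 FPKM (-0.97, SE 0.16, adjusted p = 5.02e-05), and Tspan4, a membrane tetraspanin, which fell from 54.6, 53.9 and 49.3 FPKM to 31.0, 36.4 and 31.7 FPKM (-0.66, SE 0.15, adjusted p = 0.00207). Neither group pair overlapped, which held for 1014 of all 1024 called genes. Alas1, the rate-limiting enzyme of haem synthesis, varied too widely to read, at 68.7, 162 and 70.4 FPKM in WT and 132, 177 and 43.1 FPKM in KO (0.12, 95% interval -1.60 to 1.85).

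Xenobiotic genes moved in both directions, with 3 of 23 higher (13.0%) and 5 lower (21.7%; median -0.12). Beside Cyp2b10, Gstm1 rose from 1113, 1116 and 911 FPKM to 2651, 1985 and 1747 FPKM (1.01, SE 0.20, adjusted p = 3.95e-04), and Cyp2b9, near 0 in WT, measured 2.70, 4.58 and 0.179 FPKM in KO (adjusted p = 0.0370). The alpha-class glutathione transferases went the other way: Gsta2 fell from 72.1, 25.9 and 29.0 FPKM to 5.02, 6.08 and 5.26 FPKM (-2.60, SE 0.46, adjusted p = 1.25e-04), Gsta3 by 1.02 (adjusted p = 0.00538) and Gsta1 by 1.5 (adjusted p = 0.0155). Cyp2a5, the coumarin hydroxylase, fell from 464, 406 and 315 FPKM to 99.9, 144 and 81.1 FPKM (-1.88, SE 0.43, adjusted p = 0.00289), and the sulfotransferase Sult1a1 by 1.38 (adjusted p = 0.0266). The count was 5 without WT liver 0. The call of Gsta1 ended without KO liver 1 or WT liver 0 (up to 0.0894). That of Sult1a1 ended without KO livers 0 or 2 or WT livers 0 or 1 (up to 0.144). That of Cyp2b9 ended without any 1 liver but KO liver 2 (up to 0.297). These families share sequence.

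Amino acid catabolism gave 3 calls higher (12%) and 1 lower of 25 (median 0.23). The lower share, 4%, was that of the background. Agxt, the peroxisomal aminotransferase that clears glyoxylate (chr1:93135240-93145421), rose from 177, 138 and 171 FPKM to 564, 547 and 433 FPKM (1.66, SE 0.21, adjusted p = 1.71e-07). Cbs, which starts the transsulfuration of homocysteine, rose from 178, 137 and 176 FPKM to 380.5, 362 and 320.1 FPKM (1.11, SE 0.16, adjusted p = 3.67e-06), and the aspartate aminotransferase Got1 from 149, 127 and 112 FPKM to 353, 405 and 241 FPKM (1.34, SE 0.32, adjusted p = 0.00435). All 3 were without overlap, as were 1014 of all 1024 called genes. Asl, which releases arginine in the urea cycle, fell from 701, 463 and 485 FPKM to 219, 278 and 239 FPKM (-1.14, SE 0.29, adjusted p = 0.00706), a call that ended without WT liver 0 (0.0595).

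Of 14 tested cell cycle genes 5 were called higher (35.7%) and none lower (median 0.52). All 5 encode subunits of the MCM complex, the helicase that licenses replication origins, a grouping made after the values were seen and not tested as a list. Its remaining subunit gene, Mcm5, differed by 0.79 (95% interval 0.07 to 1.5) and was not called. Mcm4 rose from 1.14, 1.56 and 1.38 FPKM to 3.31, 3.34 and 3.84 FPKM (0.93, SE 0.20, adjusted p = 0.00162), Mcm2 from 1.53, 1.16 and 1.15 to 3.92, 3.09 and 3.80 FPKM (1.01, adjusted p = 0.00520) and Mcm7 from 5.35, 5.75 and 5.44 to 10.7, 8.25 and 10.1 FPKM (0.71, adjusted p = 0.00614). Mcm6 and Mcm3 rose by 1.32 (adjusted p = 0.0240) and 0.85 (adjusted p = 0.0258). Both of these calls ended without KO liver 0 or WT liver 2, that of Mcm6 also without KO liver 1 or WT liver 1 and that of Mcm3 without KO liver 2 or WT liver 0 (adjusted p up to 0.108 and 0.129), which left 3 of the 14 called without WT liver 2. All 32 ribosomal protein genes had a difference above 0 (median 0.26, range 0.04 to 0.55) and 5 were called (15.6%): Rps7 by 0.50, Rps23 by 0.55, Rpl14 by 0.43, Rpl3 by 0.40 and Rpl4 by 0.36 (adjusted p from 0.0163 to 0.0338). None of the 32 was called without KO liver 0 or without WT liver 2, 2 were called without KO liver 1 or KO liver 2, and 3 without WT liver 1. Of 18 ribosome biogenesis genes none was called (median 0.23).

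Acute phase genes, the plasma proteins that liver makes in inflammation, gave 4 calls higher (20%) and 1 lower (5%, near the background) of 20 (median 0.34). Itih3, an inhibitor heavy chain that binds hyaluronan, rose from 238, 214 and 252 FPKM to 452, 651 and 479 FPKM (1.15, SE 0.15, adjusted p = 2.42e-07), and complement C3 from 1166, 914 and 1107 FPKM to 1903, 2150.4 and 1459 FPKM (0.78, SE 0.16, adjusted p = 0.00120). The fibrinogen chain Fgg rose by 0.54 (SE 0.15, adjusted p = 0.0137) and the pentraxin Apcs by 0.80 (SE 0.23, adjusted p = 0.0241). The gene that fell was Hamp. Lcn2, which rises steeply in inflammation, was high in 1 KO liver only, at 2.44, 68.2 and 3.64 FPKM against 3.10, 2.70 and 1.21 FPKM in WT, and was not called. The count was 3 without KO liver 1 or without WT liver 2. The call of Fgg ended without either (up to 0.112), and that of Apcs without either or WT liver 1 (up to 0.220).

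Protein folding genes showed few calls. Of 18 heat shock genes 2 were called lower (11.1%) and none higher, and the median was -0.28. Besides Hspb1 this was the chaperone gene Hspa4l, from 7.82, 9.37 and 10.2 FPKM to 5.73, 4.41 and 5.25 FPKM (-0.72, SE 0.20, adjusted p = 0.0149), not called without KO liver 1, WT liver 1 or WT liver 2 (up to 0.0928), which left 1 call in the list. Over the other 5 times the same list had a median of 0.02. Hsph1 and Chordc1 differed by -0.77 and -0.59 at ZT20, neither called (adjusted p = 0.0965 and 0.0848), and by -0.02 and -0.02 at the other times, and the change was not called (adjusted p = 0.648 and 0.641). Of 20 genes of folding in the endoplasmic reticulum none was called (median -0.11), and of 10 tested integrated stress genes only Asns, asparagine synthetase, fell, to 0.0491, 0.251 and 0.0463 FPKM from 0.913, 1.38 and 1.07 FPKM (-0.93, adjusted p = 0.0159), a call that ended without KO liver 0, KO liver 2 or WT liver 1 (up to 0.0786).

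In several further lists limma called no gene or few at ZT20. None was called among 12 glucocorticoid receptor targets (median 0.39), 21 respiratory chain genes (range -0.23 to 0.24, 10 of them above 0), 11 genes of the growth hormone axis (median -0.10), 11 SRF and immediate early genes (median -0.19) or the cold-inducible genes Cirbp and Rbm3 (0.35 and 0.13). Of the glucocorticoid targets, Zbtb16 differed by 1.21 (95% interval 0.32 to 2.10) and Cdkn1a by 1.05 (0.07 to 2.03), both with KO liver 2 far above the other KO livers, at 1.62, 3.87 and 10.6 FPKM and 7.66, 15.9 and 47.2 FPKM. Of 13 NAD genes (7.69% called in each direction) Nampt fell and Nmnat3 rose, by 0.53 (adjusted p = 0.0223), a call that ended without any 1 liver but KO liver 0 (up to 0.116). Among 14 male-biased genes (7.14% in each direction) Hsd3b5, a steroid dehydrogenase, rose from 142, 161 and 146 FPKM to 315, 286 and 263 FPKM (adjusted p = 0.0280, ended without any 1 liver but KO liver 2, up to 0.0984) and Serpina1e fell. Among 6 tested female-biased genes Cyp17a1, the steroid 17-hydroxylase, fell from 7.72, 8.21 and 5.36 FPKM to 0.807, 1.02 and 0.613 FPKM (-2.15, adjusted p = 0.00381), Acot3 fell by 1.61 (adjusted p = 0.0142, ended without KO liver 2 or WT liver 0, up to 0.0785), and Cyp2b9 rose.

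**Figure D5:**
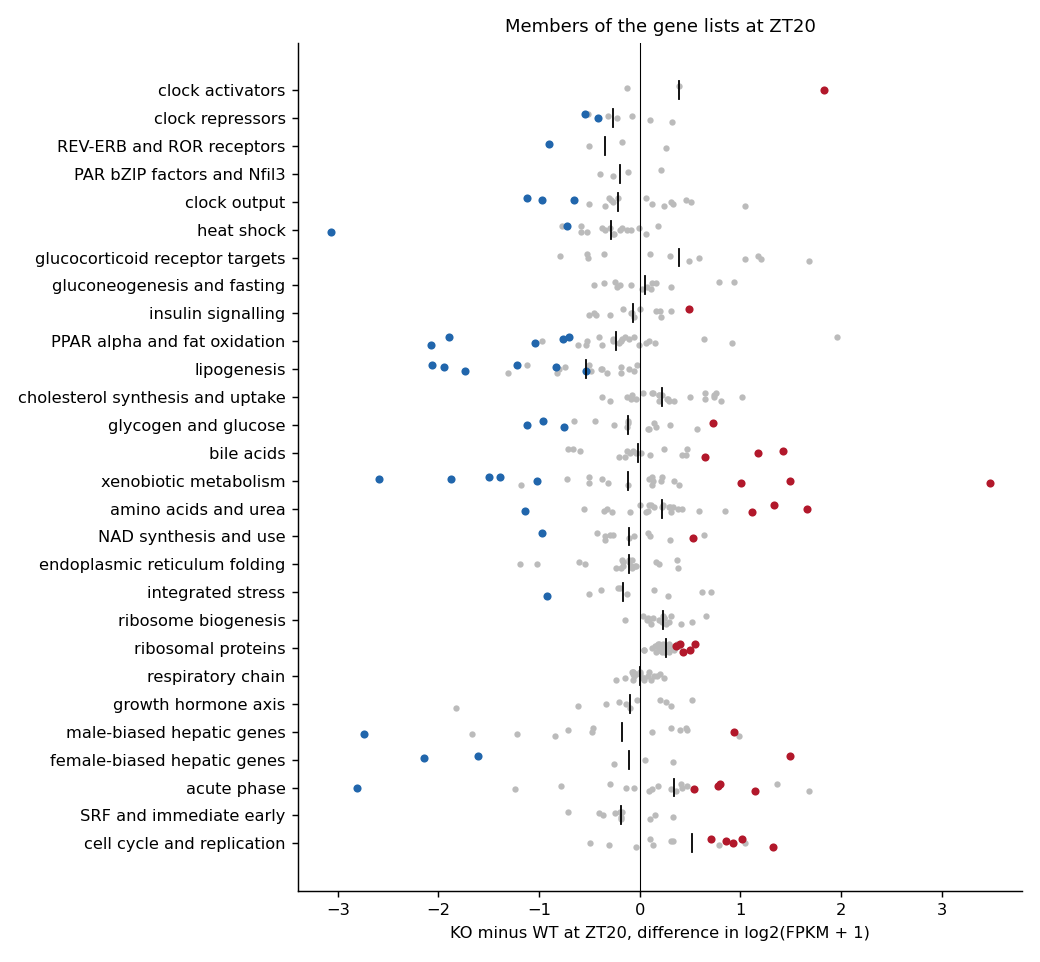
KO minus WT at ZT20 in log2(FPKM + 1) of each tested member of 28 gene lists, 1 row per list and 1 point per gene, with called genes in red (higher) or blue (lower), other genes in grey and the list's median as a black tick; points are spread vertically for legibility only. The lipogenesis row lies wholly below 0 and the ribosomal protein row wholly above 0, and the 4 clock rows at the top hold 4 called genes.

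The hepatocyte markers were abundant in both groups. Their summed FPKM without Alb was 40795 to 44167 in WT and 42095 to 44234 in KO, with Ahsg (0.70) and Apoh (0.48) called higher and Trf (-0.42) lower. The call of Apoh ended without any 1 of the 6 livers except KO liver 2 (adjusted p up to 0.220) and that of Trf without any 1 of them (from 0.0507 to 0.163). Markers of other cell types were read in the same 6 livers. Among those tested, none of 10 Kupffer cell, 9 endothelial, 9 stellate or fibroblast and 6 bile duct markers was called, nor any of 4 lymphocyte, 2 neutrophil and 5 red cell markers. Their summed FPKM overlapped between the groups, for example 154 to 202 in WT and 135 to 187 in KO for Kupffer cells. The bile duct sum was 20.8 to 36.6 in WT and 35.3 to 111 in KO, which follows Spp1 (21.5, 30.9 and 16.6 FPKM in WT, 31.5, 37.4 and 106 FPKM in KO). Of 8 pancreas markers 5 were listed at 0 in all 6 livers, and Cela1 rose from 21.4, 22.6 and 22 FPKM to 70.0, 70.7 and 68.6 FPKM (1.62, adjusted p = 5.23e-04). Of 6 muscle markers 5 were below 1 FPKM in all 6 livers, and Mylpf, at 1.55, 1.01 and 1.40 FPKM in WT and 0.598, 0.669 and 0.353 FPKM in KO, was called lower (adjusted p = 0.0475), a call that ended without any 1 of the 6 livers (from 0.0506 to 0.166). Of 6 fat markers none was called, 4 were below 1 FPKM in all 6 livers, and the sum was 10.8 to 17.0 in WT and 18.5 to 29.7 in KO. Of the markers that zone the lobule, the pericentral sum was 4879 to 5838 in WT and 6081 to 7785 in KO, without overlap, with Gulo (0.45) and Lect2 (0.67) called higher and Slc1a2 (-0.76) lower of 12. Such a sum weighs the most abundant markers most. Of the 12 differences 8 were above 0 and 4 below (median 0.31). The call of Gulo ended without KO liver 0 or WT liver 2 (up to 0.0943) and that of Lect2 without KO livers 0 or 1 or WT livers 1 or 2 (up to 0.114). That of Slc1a2 ended without any 1 of the 6 livers (from 0.0615 to 0.127). The periportal sum overlapped (3614 to 4757 in WT, 4237 to 4800 in KO), with Hsd17b13 (-0.76) called lower of 10. The part of these sums in the differences above was not tested. Alb was listed at 0 in all 3 WT livers and at 12217 to 19951 FPKM in the KO livers, so no difference is given for it. It remains counted among the 610 genes called higher. Alb was at 0 in every WT library at every time. Among KO and RE libraries it was at 0 only in KO liver 0 at ZT12, RE liver 2 at ZT16 and RE liver 0 at ZT20. The zeros thus went mostly with genotype. Of the tested genes, 43, Alb among them, were listed at 0 in some library and above 5 FPKM in all others. Only 1 of these 43, Alb, was called at ZT20. Whether their zeros share a source was not tested.

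Most of what was called at ZT20 was seen at the other times too. Of the 1024 calls, 1011 (98.7%) had the same sign in the mean difference of the other 5 times, and 912 (89.1%) were also called there with the same sign. Those 912 are 21.9% of the 4163 genes called over the other 5 times (38.1% of the genes tested), a contrast of 30 libraries and so of greater precision. Only 2 of the 1024 were called there with the opposite sign, Palld and Agpat2 (-0.38 at ZT20 and 0.14 at the other times), an enzyme of triglyceride synthesis that was named after its values were seen. The largest differences at ZT20 were large at the other times too: Nat8 differed by -5.86 at ZT20 and -4.93 at the other times, Lpl by 4.54 and 4.14, Cyp2c55 by 4.23 and 3.82, Hspb1 by -3.07 and -2.39 and Gys2 by -1.12 and -1.45. For Hamp the values were further apart, -2.81 at ZT20 and -1.10 at the other times, without the change being called (adjusted p = 0.486).

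RE livers at ZT20, in which Cre restores Bmal1 in the suprachiasmatic nucleus, were read for the same genes. Against WT, 1270 genes were called in RE (11.6%), a comparison that shares the WT livers with the one above. Between RE and KO, limma called 0 genes (0%), with 553 at an unadjusted p under 0.05. Lpl measured 116, 94.9 and 73.2 FPKM in the RE livers, Nat8 0.423, 0.274 and 1.06 FPKM, Hspb1 3.51, 1.28 and 7.18 FPKM and Gys2 38.5, 40.0 and 35.1 FPKM. Arntl measured 10.3, 12.3 and 12.1 FPKM in RE (RE minus KO -0.11, 95% interval -0.46 to 0.25), Cry1 20.1, 19.7 and 20.9 FPKM, Dbp 1.75, 1.05 and 1.95 FPKM and Nr1d1 0.397, 1.02 and 0.645 FPKM. The RE and KO livers overlapped in each of these 8 genes. In other named genes they did not, for example Nr1d2 and Nampt, neither of which was called between RE and KO. Nr1d2 measured 0.313, 1.09 and 0.860 FPKM in RE, below every KO liver. Nampt measured 12.4, 13.7 and 12.3 FPKM in RE, above every KO liver. The share of all tested genes without overlap between RE and KO was not taken.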

How the data were processed

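RNA of mouse liver was sequenced by the submitters, and the deposited table holds FPKM per gene for 54 libraries, which the authors computed after alignment with TopHat to mm10, per the submitters' processing notes. Which tool gave the FPKM, and on which annotation, is not given in the sources used here. Columns were put in groups by the genotype and time in their names, and their numbers 0 to 2 name the livers. Of 24346 genes, the 10932 whose mean reached 1 FPKM in 1 or more of the 18 groups were tested, and 13414 were not. log2(FPKM + 1) was fitted in limma 3.58.1 (R 4.3.3) as 18 group means with 36 residual degrees of freedom and a trend in the prior variance; contrasts were moderated and adjusted by Benjamini and Hochberg, and the code was tested on simulated data. Alternatives were other pseudocounts, filters, scalings, library weights and sets of libraries, and each liver left out in turn.

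The gene lists, and the genes compared, were chosen with earlier results of these data known. The genes chosen for naming were the 19 clock genes, the 12 largest rises and falls among calls without overlap whose higher mean was at least 5 FPKM, in each list the 4 of lowest adjusted p, rate-limiting or regulatory genes, and the 8 largest calls of the test of ZT20 against other times. Gene models, small RNA genes and genes listed at 0 in some library but above 5 FPKM elsewhere were left out of the largest. Some of these are not reported here. Every other gene named was chosen after its values were seen. The depth of the libraries is unknown, so no counting error could be given. Promoters are RefSeq sequence of GRCm38.p6, which is the mm10 build, matched by symbol. Protein sequence was not used here.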

Additional observations from a re-analysis of the deposited data

Results flagged for a closer look

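In the limma fit 22 genes had a KO minus WT difference at ZT20 that differed from the mean difference of the other 5 times, and 13 of these follow. The difference at ZT20 minus that of the other times was 2.56 for Nr1d1, 2.47 for Dbp, 1.52 for Nr1d2, 1.26 for Ciart and 0.69 for Per3, which encode repressors and output factors that WT liver makes mostly in the day and early night. It was -1.60 for Cry1 and -1.49 for Arntl, whose WT means were highest at ZT20 and ZT0. Outside the clock it was -1.20 for Lgalsl, -0.99 for Palld, -0.90 for Clpx, -0.81 for Mreg and -0.80 for Trim2. For Lonrf3, a clock output gene, it was -0.78.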

How the results depend on the processing

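The 1024 calls at ZT20 became 2354 with library weights and 558 to 807 with 1 liver left out, and lay between 809 and 1433 under the other alternatives. The 22 genes that set ZT20 apart became 35 with WT and KO libraries only, 138 with library weights, 13 with a filter at 5 FPKM, and 14 to 25 with 1 liver left out; the calls over the other 5 times ranged from 3045 to 5409. Of the 72 called genes among those chosen by the rule, none changed sign under any alternative run, and 49 stayed called whichever 1 liver was left out. The constant sign says little, because KO and WT livers did not overlap in 1014 of the 1024 called genes. For such genes leaving out 1 liver cannot change the sign. Among called list members, calls at ZT20 also ended for Apcs, Apoh, Ciart, Cyp2b9, Elovl6, Fgg, Pnpla3, Sult1a1 and Trf in the fit of the 6 ZT20 libraries (adjusted p from 0.0501 to 0.121), and for Apoh, Cyp2b9, Elovl6, Ly6d, Mylpf, Per3, Ppara, Slc1a2 and Trf with no filter (0.0613 to 0.122). Other scalings, filters, pseudocounts and fits ended calls of Ciart, Elovl6, Ly6d, Mylpf, Per3, Ppara, Rpl3 and Trf (0.0507 to 0.0887). With 1 liver left out, 5 genes that were not called changed sign at ZT20: Cry1 ranged from -0.033 to 0.20, Bhlhe40 from -0.19 to 0.036, G6pc from -0.074 to 0.34, Alas1 from -0.28 to 0.72 and Lgalsl from -0.038 to 0.19. The cause was not tested. An alternative that rescaled libraries without the genes listed at 0, and one without the ZT0 WT liver 0 and the ZT8 KO liver 1, were chosen after seeing the data; the latter gave 1097 calls at ZT20 and 27 genes that set it apart. No paired analysis was possible because the column numbers are not the replicate numbers of the sample titles. With 3 livers a group and FPKM in place of counts, small differences of low genes could not be resolved.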
